A study of Mus musculus with 72 samples.

Results

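The regions described here are 2709 sites of open chromatin in mouse microglia at which acetylation of histone H3 at lysine 27 (H3K27ac) was lower in nuclei of SgshKO mice than in those of wild-type (WT) mice. They were chosen by the measured H3K27ac values themselves. A peak was a member when the mean of its 4 WT libraries was at least 20 tags per 10M tags of the library and when that mean plus 1 was at least 2 times the SgshKO mean plus 1. Of the 91770 peaks measured, 42884 reached the WT minimum and are called eligible, and the 2709 members were 6.32% of the eligible and 2.95% of all peaks. At the other end, 993 eligible peaks were at least 2-fold higher in SgshKO. Since the rule used the microglial genotype contrast, levels and ratios in that contrast are a description and no test of it is given.

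Nuclei of C57BL/6 mouse brain were sorted as PU.1+ OLIG2- NEUN- (microglia), NEUN+ (neurons) or OLIG2+ (oligodendrocytes), and H3K27ac chromatin immunoprecipitation sequencing (ChIP-seq) was made from WT and SgshKO mice of 4 and 8 months. Each sorted population had 2 libraries for a genotype at an age. Microglial inputs, sheared chromatin without precipitation, also had 2 replicates a group. The transcription factors MITF, TFEB and TFE3 were precipitated from WT and SgshKO microglial nuclei for which the labels give no age, with 3 WT and 2 SgshKO libraries for each factor and for their input. The deposited columns merge these libraries into 1 pool for each factor or input in each genotype. SgshKO is given in the labels as a genotype only, with no word on the allele, and nothing there says whether replicates came from separate mice or pooled mice, so the p-values measure only the spread between libraries.

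H3K27ac is laid down by the acetyltransferases p300 and CBP on nucleosomes beside active promoters and enhancers. In microglia, the resident macrophages of the brain, enhancers are selected by PU.1 together with partners such as IRF8, MEF2, SALL1 and SMAD factors downstream of TGF-beta. Sgsh encodes sulfamidase, a lysosomal enzyme in the stepwise breakdown of heparan sulfate, and people who lack it have the childhood brain disease mucopolysaccharidosis IIIA. MITF, TFEB and TFE3 are related helix-loop-helix factors that bind E-boxes and control lysosomal and autophagy genes.

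The microglial H3K27ac libraries held 12000879 to 15778229 tags. The 800 bp windows of all peaks took 41.2 to 51.3% of the tags in WT and 33.2 to 47.2% in SgshKO, with overlapping windows counted more than once. The median log2 ratio of SgshKO over WT was -0.15 over all peaks and -0.28 over the eligible peaks. After scaling by the TMM method these medians were 0.02 and -0.09, and that of the members moved from -1.25 to -1.07. On TMM-scaled values the rule held at 1557 peaks, all of them members, and 1431 eligible peaks were 2-fold higher; lower peaks made up 73.2% of the peaks past 2-fold as deposited and 52.1% after scaling. At the start site of Sgsh itself, the peak held 93.8 to 142.8 tags per 10M in WT and 93.7 to 122.5 in SgshKO, and acetylation there gives no check of the genotype. The sort was checked at the start sites of marker genes. Peaks were found at 9 of 10 microglial and macrophage markers. The 9 peaks, among them those of Spi1, Cx3cr1 and P2ry12, summed to 2213 to 2636 tags per 10M in WT and 1628 to 2226 in SgshKO.

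Promoters inside member windows are shown for genes whose values are given below: those of Gp9, Adamtsl2 and Tmem176b lie in the members of largest ratio that hold a whole RefSeq promoter, Eng is a gene of the TGF-beta pathway whose eligible peaks were all members, and Il7r is a lymphocyte gene. Sequences are from RefSeq (GRCm38.p6), 250 bases before to 50 after the start, printed 5′ to 3′ in the direction of the gene. Capitals mark short sequences that match, on either strand, the letters searched for PU.1 (GAGGAAGT), RUNX (TGTGGT), CEBP (TTGCNNAA) and SMAD (CAGACA).
Gp9, chr6:87777820-87778119, + strand: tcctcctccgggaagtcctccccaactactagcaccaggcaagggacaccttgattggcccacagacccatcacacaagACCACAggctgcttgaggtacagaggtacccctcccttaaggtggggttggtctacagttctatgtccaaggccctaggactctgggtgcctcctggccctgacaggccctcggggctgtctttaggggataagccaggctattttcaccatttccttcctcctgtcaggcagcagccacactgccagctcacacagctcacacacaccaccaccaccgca
Adamtsl2, chr2:27079129-27079428, + strand: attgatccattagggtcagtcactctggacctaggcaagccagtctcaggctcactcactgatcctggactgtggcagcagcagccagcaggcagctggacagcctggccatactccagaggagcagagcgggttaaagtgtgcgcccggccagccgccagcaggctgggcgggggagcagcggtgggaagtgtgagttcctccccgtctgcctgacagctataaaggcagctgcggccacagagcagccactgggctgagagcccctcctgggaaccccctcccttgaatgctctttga
Tmem176b, chr6:48841088-48841387, - strand: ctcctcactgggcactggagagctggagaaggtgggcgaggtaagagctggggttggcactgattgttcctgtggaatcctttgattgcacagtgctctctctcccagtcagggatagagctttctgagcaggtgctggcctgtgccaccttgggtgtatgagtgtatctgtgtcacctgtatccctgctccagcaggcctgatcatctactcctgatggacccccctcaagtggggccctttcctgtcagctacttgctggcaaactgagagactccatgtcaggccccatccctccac
Eng, chr2:32646345-32646644, + strand: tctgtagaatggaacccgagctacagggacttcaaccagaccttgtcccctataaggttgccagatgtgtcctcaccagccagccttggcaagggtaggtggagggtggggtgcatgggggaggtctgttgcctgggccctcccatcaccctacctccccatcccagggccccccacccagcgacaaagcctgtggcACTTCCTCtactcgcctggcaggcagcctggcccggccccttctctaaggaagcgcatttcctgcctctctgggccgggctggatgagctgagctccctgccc
Il7r, chr15:9529827-9530126, - strand: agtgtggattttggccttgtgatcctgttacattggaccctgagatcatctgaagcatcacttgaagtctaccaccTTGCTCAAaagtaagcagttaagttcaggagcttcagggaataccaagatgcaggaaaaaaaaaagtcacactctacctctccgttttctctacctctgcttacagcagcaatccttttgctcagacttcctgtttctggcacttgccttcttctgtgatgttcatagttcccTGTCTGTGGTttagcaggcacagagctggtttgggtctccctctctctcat

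The Gp9 promoter held 1 RUNX match, the Eng promoter 1 PU.1 match, and the Il7r promoter 1 CEBP match and overlapping SMAD and RUNX matches. No searched letters were found in the other two. Of the 369 members within 1 kb of a start site, 126 held a RefSeq promoter of their nearest gene wholly inside the window, giving 131 distinct promoters of 119 genes. Their median GC content was 63.0%, against 62.7% for the 6372 promoters held in eligible windows and 52.7% for all 32851 promoters. They held a median of 20 CG pairs, against 23 and 7. The E-box letters CACGTG, which the MITF family binds, were in 5 of the 131 promoters (3.82%), against 11.5% of the eligible and 7.15% of all promoters. The longer form TCACGTGA, which contains CACGTG, was in 1.53%, 2.43% and 0.974%. PU.1 letters were in 5.34%, 4.11% and 3.20%, and KLF letters (CCACACCC) in 6.87%, 3.80% and 3.56%. The MEF2 letters TATTTNTA were in 6.11%, 2.54% and 5.99%, AP-1 letters (TGANTCA) in 4.58%, 4.13% and 7.81%, and CEBP letters in 11.5%, 7.42% and 10.8%. The shares for RUNX were 14.5%, 11.7% and 16.8%, those for SMAD 13.7%, 14.5% and 21.04%, and those for the IRF element 3.82%, 3.11% and 3.44%. These are counts of letters in windows and not binding sites.

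The drop at the members was of moderate size at most of them. The ratio of WT over SgshKO had a median of 2.37, quartiles of 2.15 and 2.86 and a maximum of 12.7. It was under 2.5 at 1588 members, at least 3 at 577, at least 4 at 218 and at least 5 at 99. Members were not the most acetylated peaks of WT microglia: their WT mean had a median of 49.3 tags per 10M (20.0 to 429.1), against 65.1 for the eligible peaks. Their SgshKO mean had a median of 18.4.

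In the single WT libraries the median member held 50.0 and 56.5 tags per 10M at 4 months and 45.0 and 44.8 at 8 months. In the SgshKO libraries it held 18.6 and 21.5 at 4 months and 17.9 and 15.7 at 8 months. The medians of the eligible peaks ran from 60.4 to 74.1 in WT and from 48.8 to 69.3 in SgshKO, so their ranges overlapped. The ranges of the members' medians did not overlap, but the members were chosen on these values. The members took 3.88 to 4.24% of the window tags in WT and 1.80 to 1.90% in SgshKO. At 2451 members all 4 SgshKO libraries were below all 4 WT libraries, and at 258 they overlapped; 18.3% of the eligible and 10.3% of all peaks had that same order, and nothing is read from it because the rule used the contrast. Mean input of a genotype was low at these sites, with a median of 4.61 tags per 10M in WT and 4.12 in SgshKO at the members. At the eligible peaks these medians were 4.81 and 4.47. In single input libraries the members' median ran from 2.76 to 4.81 in WT and from 0 to 4.15 in SgshKO.

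**Figure D1:**
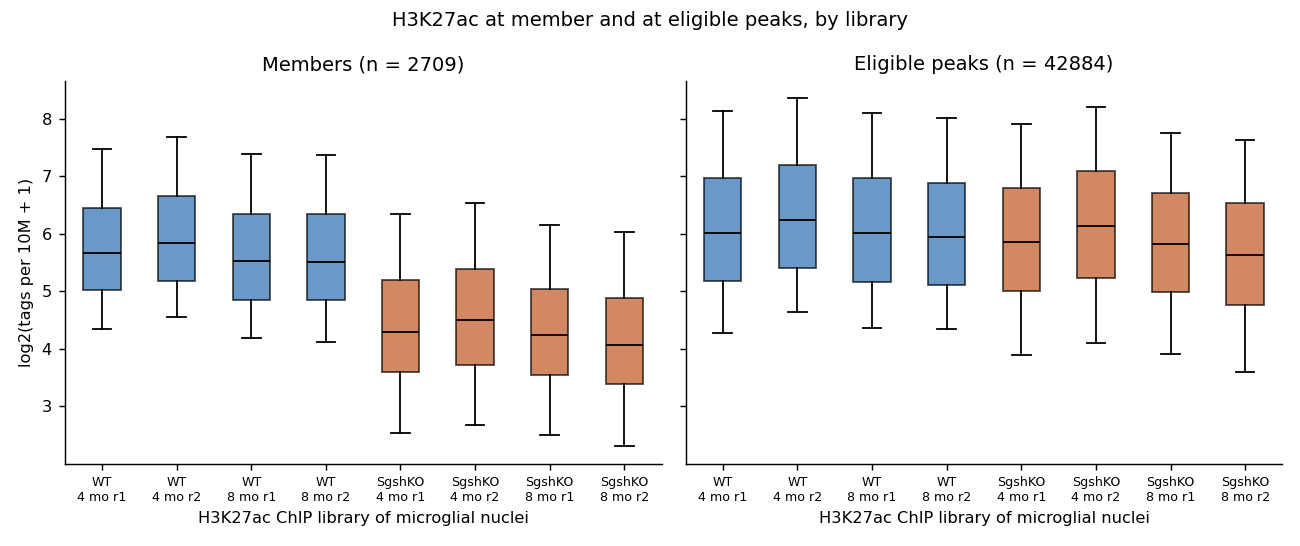
H3K27ac as log2(tags per 10M + 1) in each of the 8 microglial libraries at the members (left) and at all eligible peaks, members included (right). Boxes span the quartiles with the median as a line, whiskers the 5th to 95th percentile. The SgshKO medians of the members, 15.7 to 21.5 tags per 10M, sit below the WT medians, 44.8 to 56.5.

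The largest ratio, 12.7, was at an intergenic peak at chr4:93550806-93551606 whose nearest gene, Tusc1, lies 215695 bp away. All coordinates of peaks are those of the deposited tables, in mm10 per the submitters' processing notes. Its WT libraries held 32.5 and 51.0 tags per 10M at 4 months and 35.5 and 33.4 at 8 months, and its SgshKO libraries 0.69, 3.37, 2.66 and 1.57. The next, at chr8:9184984-9185784, 40715 bp from the noncoding gene 4930453L07Rik, had a ratio of 11.8. It held 121.7, 132.6, 121.7 and 127.9 tags per 10M in WT and 11.7, 10.8, 3.98 and 12.6 in SgshKO. Both sites were picked by this contrast, so nothing is read from the order of their libraries.

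The promoter of Gp9, a subunit of the platelet receptor for von Willebrand factor, held the largest ratio at a start site, 11.2 (chr6:87777666-87778466). It held 69.2 and 47.6 tags per 10M in WT at 4 months, 46.3 and 31.97 at 8 months, and 3.44, 6.06, 2.66 and 1.57 in SgshKO. A second Gp9 member, in intron 1 of 1 and 620 bp from the start, had a ratio of 8.49, and its window overlaps that of the promoter, so the 2 share tags. At the promoter of Adamtsl2, a secreted glycoprotein that binds fibrillin and the latent TGF-beta binding protein, the ratio was 8.91 (chr2:27078894-27079694). WT libraries held 41.7, 55.8, 30.4 and 31.3 tags per 10M there and SgshKO libraries 1.38, 4.71, 6.64 and 1.57.

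Tmem176b and Tmem176a, neighbouring membrane protein genes of myeloid cells that start from a shared promoter region in opposite directions, held 5 members between them. The Tmem176b promoter peak (chr6:48840693-48841493) had a ratio of 7.13, with 102.5, 119.7, 100.8 and 107.3 tags per 10M in WT and 17.9, 11.4, 21.3 and 6.30 in SgshKO. The Tmem176a promoter peak had a ratio of 6.30. Khdrbs3, an RNA-binding protein gene, held its member in intron 1 of 8, 859 bp from the start, with a ratio of 9.57. Its WT libraries held 50.8, 19.7, 19.7 and 30.6 tags per 10M and its SgshKO libraries 2.07, 0.67, 0 and 6.30.

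A run of members of large ratio lay on chromosome 11 between Mir152, a microRNA gene, and Cdk5rap3, where all 7 eligible peaks from 96872284 to 96886301 were members, with a median ratio of 6.68. Its most acetylated member, at chr11:96885501-96886301, held 253.3, 337.4, 266.8 and 257.2 tags per 10M in WT and 41.3, 22.2, 32.5 and 22.04 in SgshKO, a ratio of 9.16. The peak of largest ratio in the run, 9.52, held 54.2, 67.3, 58.3 and 44.8 in WT and 7.58, 2.02, 3.32 and 7.08 in SgshKO. A distal peak 140581 bp from Trim33, a ubiquitin ligase that acts on SMAD4, had a ratio of 9.13 (150.0, 161.2, 134.4 and 105.9 tags per 10M in WT against 15.2, 16.8, 5.98 and 18.9). Ifitm10, of the interferon-induced transmembrane family, held a member of ratio 8.89 in intron 2 of 2.

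**Figure D2:**
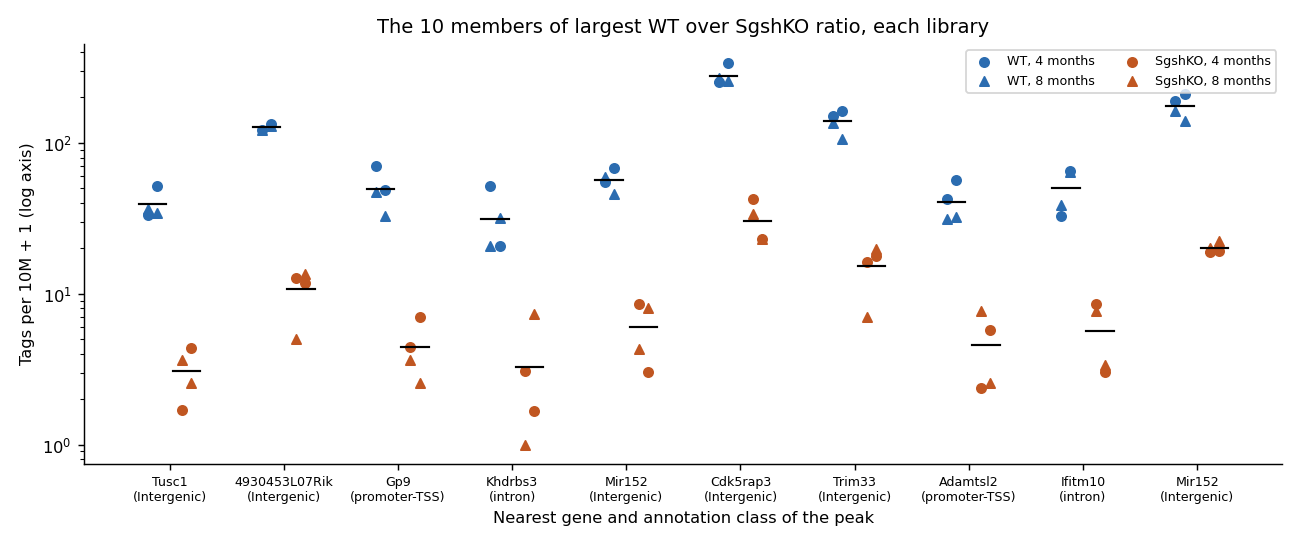
Tags per 10M plus 1 (log axis) at the 10 members of largest ratio, by nearest gene and annotation class. Points are single libraries (WT blue, SgshKO orange), circles at 4 months and triangles at 8 months, and bars are means of 4 libraries. The peaks were picked by this same contrast, so nothing is read from the order of their libraries.

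The most acetylated members of WT microglia had smaller ratios. An intronic peak of Serpinf1, which encodes the secreted serpin PEDF, held a WT mean of 429.1 ± 74.7 tags per 10M (SD, n = 4) and an SgshKO mean of 186.0 ± 48.0, a ratio of 2.30. A peak 9563 bp from Selplg, the gene of the P-selectin ligand PSGL-1, held 354.2 ± 21.7 in WT and 153.2 ± 35.7 in SgshKO. In intron 1 of 7 of Tm6sf1, a transmembrane protein gene, the means were 349.6 ± 51.0 and 122.6 ± 19.4, a ratio of 2.84. A peak nearest Dclk2 had a ratio of 2.12, with 1.78 at 4 months and 2.69 at 8 months.

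At the edge of the rule, the members of smallest ratio lay nearest Creb1 (2.0004) and Myo18b among others, and the peaks just outside it nearest Mcu (1.9998) and Txndc11 among others. The Creb1 peak held 10.0, 28.6, 27.9 and 27.7 tags per 10M in WT and 13.8, 13.5, 9.96 and 7.87 in SgshKO, and the Mcu peak 44.2, 52.4, 51.3 and 31.97 in WT and 25.5, 25.6, 21.9 and 14.96 in SgshKO. The libraries of the genotypes overlapped at Creb1 and did not at Mcu.

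Members lay away from promoters. Only 369 of them (13.6%) were within 1 kb of a start site, against 33.4% of the eligible peaks, and their median distance to the nearest start was 15491 bp against 6261 bp. By the annotation in the deposited table, 1456 members were intronic (53.7%, against 45.0% of the eligible), 817 intergenic (30.2% against 24.5%) and 225 at a promoter (8.31% against 23.4%). The share of eligible peaks that were members rose with distance, from 2.58% within 1 kb to 6.93% at 1 to 10 kb, 7.96% at 10 to 50 kb, 9.26% at 50 to 100 kb and 13.5% beyond 100 kb. No test is attached to these shares, because neighbouring peaks are not independent.

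**Figure D3:**
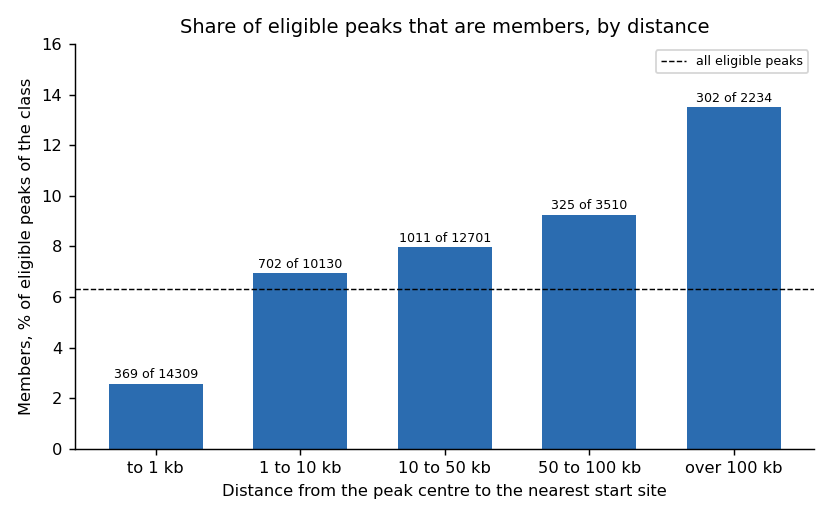
Members as a percent of the eligible peaks in 5 classes of distance from the peak centre to the nearest start site, with counts above the bars. The dashed line is the 6.32% over all eligible peaks, and the bars run from 2.58% within 1 kb to 13.5% beyond 100 kb.

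By chromosome, the members' share of eligible peaks ran from 4.60% on chromosome 10 to 8.51% on chromosome 12, leaving out Y with 2 eligible peaks. On chromosome 11, which carries Sgsh, it was 7.01%. Within 10 Mb of Sgsh 43 of 584 eligible peaks were members (7.36%), within 25 Mb 108 of 1354 (7.98%), and beyond 25 Mb on the same chromosome 137 of 2141 (6.399%). Members within 25 Mb of the gene were thus 108 of the 2709.

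Members were often neighbours. With centres at most 10 kb apart counted as 1 run, they formed 1711 runs, of which 1163 held 1 member and 51 held at least 5, with 339 members among them. Windows of 785 members overlapped that of another member, so members are not independent of each other. The run with the most members, 16.03 kb of chromosome 12 beside Rhob, a small GTPase gene, held 14 of 16 eligible peaks with a median ratio of 2.92. The run across Tmem119 and Selplg on chromosome 5 held 13 of 21, that of Ak1 and Eng on chromosome 2 held 12 of 13, and that of Mir1953 and Fam110a held 11 of 11. The run at Ifitm10 held 8 of 8 with a median ratio of 5.90, and that at Abcg1, a cholesterol exporter gene, 8 of 11.

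In windows of 1 Mb the densest were on chromosome 12 from 99000001, around Foxn3, with 26 members of 80 eligible peaks, and on chromosome 5 from 100000001, around Plac8, Coq2 and Cops4, with 24 of 47. A window on chromosome 7 around Sema4b and Crtc3 held 24 of 156. That around Rhob held 19 of 62 and that around Pmepa1, an inhibitor of TGF-beta signalling, 19 of 92. Of 1864 windows with an eligible peak, 868 held a member and 37 held at least 10.

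The members were nearest to 1423 genes of the 10580 nearest to an eligible peak. For 849 of them there was 1 member, for 90 at least 5, and 267 had a member within 1 kb of a start. Chsy1, which encodes a chondroitin synthase, had the most with 16 of its 28 eligible peaks. Its member of largest ratio, in intron 1 of 2, held 69.2, 63.9, 67.8 and 49.0 tags per 10M in WT and 6.20, 17.5, 22.6 and 23.6 in SgshKO, a ratio of 3.44. Tjp1, the tight junction protein ZO-1, followed with 14 of 15 and a largest ratio of 6.10. Rhob had 14 of 29, the noncoding gene 4930474N09Rik 12 of 24 and Foxn3, a forkhead repressor, 12 of 20. Cbfa2t3, a corepressor of the ETO family, had 11 of 15, and Lsm6 had 10 of 14 with a median ratio of 4.24. Nearest genes are assigned by distance alone.

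Homeostatic microglial genes, a list of 27 genes that resting microglia express, were nearest to 406 eligible peaks, of which 27 were members (6.65%, against 6.32% of all eligible peaks) at 10 genes. The median ratio of the list's eligible peaks was 1.34, against 1.21 for all, and 1 of them rose 2-fold. Selplg held 11 of the 27, and Sall1, which encodes a transcription factor that maintains microglial identity, held 5 of its 52. At the promoter of Upk1b, a tetraspanin gene, the ratio was 4.45, with 49.2, 51.0, 46.3 and 56.8 tags per 10M in WT and 9.64, 10.1, 12.6 and 10.2 in SgshKO. In the single intron of Selplg it was 3.35, with 114.2, 136.7, 147.7 and 140.7 in WT and 40.0, 50.5, 30.5 and 37.0 in SgshKO. In both, the libraries of a genotype lay close together.

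Tmem119, a membrane protein used to mark microglia, had 2 members of 18 eligible peaks, the larger with a ratio of 2.78 (50.8, 83.7, 60.8 and 36.9 tags per 10M in WT against 21.4, 20.9, 16.6 and 22.04). Slc2a5, the fructose transporter GLUT5, had 1 of 4 with a ratio of 2.99, and Golm1 1 of 20 with 3.00. Csf1r, the receptor for colony-stimulating factor 1, had 2 of 16. The purinergic receptor genes P2ry12, P2ry13 and P2ry6, the fractalkine receptor gene Cx3cr1, and Gpr34 and Siglech held no member, with largest ratios of 1.77, 1.70, 1.58, 1.46, 1.60 and 1.68.

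Microglial transcription factor genes held 17 members of 487 eligible peaks (3.49%), over 10 of 24 genes with an eligible peak. Smad3, which carries TGF-beta signals to the genome, had 3 of 29; the largest, in intron 1 of 8, held 107.5, 93.9, 105.2 and 81.7 tags per 10M in WT and 37.2, 47.8, 35.9 and 31.5 in SgshKO, a ratio of 2.51. Klf2, Irf2, Klf4 and Mef2a had 2 each with largest ratios of 2.49, 2.44, 2.30 and 2.09, and Runx1 and Maf 1 each with 2.33 and 2.17. Spi1, which encodes PU.1, had none of 14 with a largest ratio of 1.38. No ratio of the list passed 2.51.

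Genes of the TGF-beta pathway held 9 members of 230 eligible peaks (3.91%) at 6 genes. Eng, the co-receptor endoglin, held 4 of them, and these were all of its eligible peaks. Its member of largest ratio (4.63), in intron 1 of 14, held 61.7, 52.4, 72.3 and 62.5 tags per 10M in WT and 15.8, 12.8, 17.3 and 4.72 in SgshKO. The promoter peak whose sequence is shown had a ratio of 3.83, and its window overlaps the next. The receptor gene Acvr1 had a member of ratio 3.35 whose WT libraries spread from 15.8 to 38.1, and the repressor genes Tgif2 and Skil had members of 2.84 and 2.21. The receptor gene Tgfbr2 had none of 42, with a largest ratio of 1.68.

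Disease-associated microglia (DAM) genes, such as Apoe, Cst7 and Spp1, which microglia raise around pathology, held no member among 141 eligible peaks. The median ratio of those peaks was 0.75, the largest 1.58, and 34 of them rose 2-fold. Interferon response genes held none of 24. Lysosomal genes held 6 of 258 (2.33%), with a median ratio of 0.95 and 17 that rose 2-fold. The 6 were 3 nearest Naglu, 2 nearest Fnip1, a folliculin partner, and 1 nearest Psap, the saposin precursor. Naglu encodes another enzyme of heparan sulfate breakdown. Its member of largest ratio, 3.61, lies 13123 bp from its start in an intron of another transcript and held 113.3, 83.0, 78.0 and 81.7 tags per 10M in WT and 23.4, 26.9, 27.2 and 18.1 in SgshKO. The shares of these lists are given beside the 6.32% of all eligible peaks as a description, with no test of the lists.

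Markers of other cell types were read at their start sites, and some moved with the members. Over 5 lymphocyte markers the sum was 79.6 to 93.9 tags per 10M in WT and 17.2 to 37.9 in SgshKO. Most of it was Il7r, the interleukin 7 receptor gene, and Cd79b. Pax5 and Ebf1 were under 5, and Ebf1 (mean of 1.495 in WT and 2.00 in SgshKO) was higher in SgshKO. The Il7r promoter was a member with a ratio of 4.85 and held 67.5, 57.1, 50.7 and 53.3 tags per 10M in WT and 2.07, 12.1, 17.9 and 11.8 in SgshKO. Over 8 oligodendrocyte markers the sum was 278.5 to 374.1 in WT and 150.3 to 198.5 in SgshKO. Cnp and Mog carried it, while Olig1, Olig2, Myrf, Cldn11 and Pdgfra were under 5. Of these low markers, Olig1 (mean of 1.65 in WT and 3.31 in SgshKO), Myrf (1.62 and 4.69), Cldn11 (2.83 and 3.755) and Pdgfra (2.165 and 2.54) were higher in SgshKO. Olig2 (2.46 and 1.58) was lower. Mog, a myelin glycoprotein gene, was a member with a ratio of 3.53, with 83.3, 89.8, 78.6 and 88.8 tags per 10M in WT and 17.2, 20.2, 35.9 and 20.46 in SgshKO.

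Over 7 neuronal markers the sum was 61.8 to 105.4 in WT and 41.2 to 55.1 in SgshKO. The lower sum came from the member Dlg4 (mean of 45.0 in WT and 15.7 in SgshKO), while Camk2a (14.6 and 16.7), Tubb3 (1.16 and 2.95) and Grin1 (0.90 and 1.35) were higher in SgshKO. Over 4 endothelial and mural markers the sums were 95.9 to 131.7 and 73.2 to 91.6. There the lower sum came from the member Pecam1 (83.5 and 27.2), while Kdr (26.9 and 46.1) and Flt1 (1.60 and 8.05) were higher in SgshKO. Over 5 astrocyte markers the ranges overlapped, at 44.2 to 55.1 and 44.1 to 59.2. Over 3 monocyte and neutrophil markers they were 19.2 to 29.1 and 7.08 to 24.6. The member S100a4 (20.9 and 7.90) was lower in SgshKO there, while Vcan (1.49 and 2.06) and S100a8 (0.99 and 3.90) were higher. Over 6 border macrophage markers the sums were 336.5 to 476.8 and 294.4 to 415.9. Stab1 (185.3 and 128.4) and Siglec1 (98.7 and 93.1) made up most of that last sum, and Mrc1 (39.7 and 68.9), Dab2 (23.4 and 45.4) and Ms4a7 (9.88 and 17.1) were higher in SgshKO. No marker was at 0 in all libraries. Among eligible peaks nearest to the markers of a list, at any distance, members were 12 of 25 for endothelial and mural cells, 6 of 11 for neurons, 6 of 10 for monocytes and neutrophils and 4 of 13 for lymphocytes. They were 2 of 26 for oligodendrocytes, 1 of 18 for astrocytes, 2 of 32 for border macrophages and 6 of 185 for microglia. Of all eligible peaks 6.32% were members. Single genes held most of the members in 3 of the lists. Celf4 held 5 of the 6 for neurons, Plac8 5 of the 6 for monocytes and neutrophils, and Pecam1 7 of the 12 for endothelial and mural cells. Fewer nuclei of a type and less acetylation per nucleus cannot be told apart in such bulk libraries, and the part of other cell types in the members' ratios was not tested.

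The ratios at each age come from the libraries that the rule used, so they are a description and no separate evidence of loss at either age. The members' median ratio was 2.44 at 4 months and 2.48 at 8 months. The ratio reached 2 at both ages at 1651 members, at 4 months alone at 534 and at 8 months alone at 524, and it was larger at 8 months at 1401. No member was below 1 at 4 months (lowest 1.13) and 4 were at 8 months (lowest 0.81). An interaction of genotype and age, which the rule on the mean of both ages did not use, was tested with limma over 69663 peaks. It was called at a false discovery rate (FDR) below 0.05 at 0 of the 2709 members and at 0 of all peaks tested (0%), while 209 members (7.72%) and 6.47% of all had an unadjusted p under 0.05. DESeq2 and edgeR also called 0 members and 0 of all 69663 peaks.

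The members with the smallest interaction p were nearest Spata48 and Snn. At Snn, which encodes stannin, WT libraries held 195.0, 239.4, 233.9 and 199.6 tags per 10M and SgshKO libraries 97.8 and 129.2 at 4 months and 49.1 and 55.9 at 8 months. The ratio there was 1.91 at 4 and 4.07 at 8 months, and limma gave an interaction of -1.02 ± 0.27 (SE, log2) with an adjusted p of 0.747. At Spata48 the ratio was 4.31 at 4 and 1.05 at 8 months (2.35 ± 0.60, adjusted p of 0.747 in limma). Neither passed the test.

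Between ages within a genotype, limma called 0 members in SgshKO, where 1 of all peaks tested was called (0.00144%), and 0 in WT, where 0 of all were (0%). DESeq2 and edgeR called 0 members in either. Of all 69663 peaks they called 2 and 1 in SgshKO, and both called 0 in WT. In SgshKO 387 members (14.3%) had an unadjusted p under 0.05, 224 lower and 163 higher at 8 months, against 7.94% of all peaks. In WT 68 members (2.51%) did, against 5.93%. Each of these contrasts set 2 libraries against 2 and was not tried on simulated data. Their counts of 0 thus do not show that the ages were alike. The smallest adjusted p in SgshKO, 0.140 in limma, was at a member in intron 2 of 7 of Nkd1, a Wnt antagonist gene, whose SgshKO libraries held 0 and 2.02 tags per 10M at 4 months and 19.3 and 5.51 at 8 months. In WT the smallest was 0.681, at an exonic peak of the beta-1 adrenergic receptor gene Adrb1 with 165.8 and 140.1 at 4 months and 69.1 and 75.3 at 8 months.

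**Figure D4:**
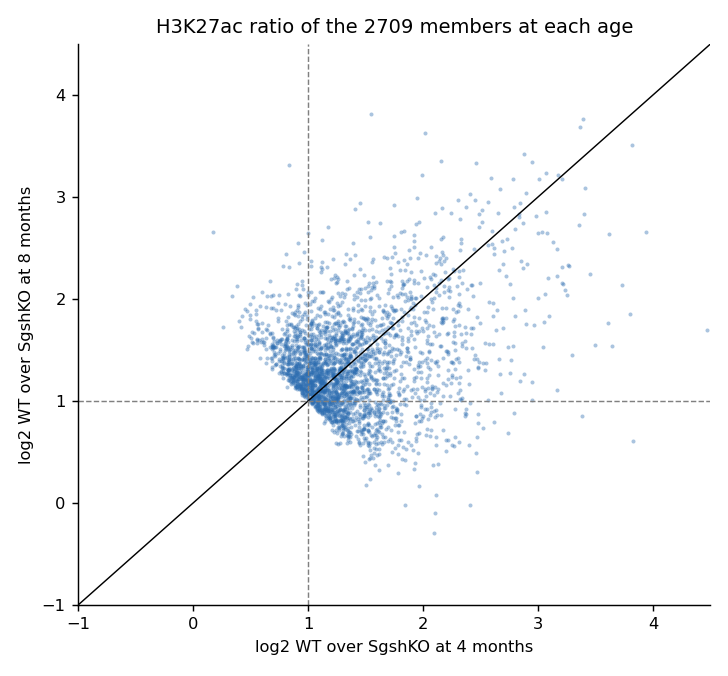
log2 ratio of WT over SgshKO at 4 months (x) against 8 months (y), 1 point a member, with the line of equality and dashed lines at a ratio of 2. The empty lower left corner is set by the rule on the mean of both ages; 1651 points lie above 2 at both ages.

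The input libraries were fitted likewise, with genotype and age as terms. Of the members, 1229 passed the filter on low counts, and limma called 0 of them and 0 of all 39323 peaks tested (0%). An unadjusted p under 0.05 was reached by 28 of the 1229 (2.28%) and 1111 of all 39323 (2.83%). DESeq2 and edgeR called 0 members as well, and 0 of all 39323 peaks. On simulated data this fit and that of the interaction recovered few of the changes put in, so their counts of 0 do not show that the genotypes or ages were alike.

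At most members no peak of the other cell types was near. In neurons 466 of them (17.2%) had a peak with its centre within 200 bp, against 32.4% of the eligible peaks, and in oligodendrocytes 380 (14.0%) against 30.6%. Neither cell type had a peak at 2096 members (77.4%, against 61.3%). The shares depended on distance from promoters: beyond 1 kb of a start site 12.4% of members and 14.4% of eligible peaks matched in neurons, and 9.83% and 13.4% in oligodendrocytes, while within 1 kb the shares were 48.0% and 68.2%, and 40.7% and 64.9%.

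At the matched peaks the median difference between genotypes was small in the other cell types. The median log2 difference of SgshKO and WT was 0.04 in neurons and -0.00 in oligodendrocytes, against 0.05 and -0.02 at the matched eligible peaks. The filter on low counts left 427 distinct matched peaks in neurons and 358 in oligodendrocytes. In neurons limma called 0 of the 427 (23 at an unadjusted p under 0.05, or 5.39%) and 0 of all 97997 peaks (0%; 4720 at an unadjusted p under 0.05, or 4.82%). In oligodendrocytes it called 0 of the 358 (32 at an unadjusted p under 0.05, or 8.94%), while 110 of all 78443 peaks were called (0.14%; 6837 at an unadjusted p under 0.05, or 8.72%). DESeq2 called 2 of the 358, both lower, and 282 of all 78443 (0.359%). edgeR called 0 of the 358 and 56 of all, and in neurons both tools called 0 matched peaks and 0 of all 97997. On simulated data the limma fit in neurons recovered 6% of 2-fold and 76% of 4-fold changes, and that in oligodendrocytes 4% and 87%. Counts of 0 here thus do not show that 2-fold changes were absent. Of the members whose matched peak had a WT mean of at least 20, that peak reached a ratio of 2 at 0 of 256 in neurons. In oligodendrocytes it did so at 1 of 204. Among eligible peaks matched in that way the counts were 2 of 10582 and 6 of 9423, so such ratios were rare at both.

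At Adamtsl2 the promoter peak, with the microglial ratio of 8.91, had a log2 difference of SgshKO and WT of 0.96 in neurons and 0.50 in oligodendrocytes (adjusted p of 0.97 and 0.75 in limma). The Dlg4 promoter had 0.02 in neurons and 0.16 in oligodendrocytes. The smallest p in oligodendrocytes was at a peak of Clec11a, a secreted growth factor gene, with -0.71 ± 0.19 (SE, log2; adjusted p of 0.119 in limma), where the microglial ratio was 2.14. In neurons it was at a peak near Atxn1, the ataxin 1 gene, where acetylation was 0.77 ± 0.23 higher in SgshKO (adjusted p of 0.970 in limma) and the microglial ratio was 2.13.

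MITF, TFEB and TFE3 were read in the central 200 bp of the same peaks, from merged pools that have no replicates and so give no test. With binding taken as a log2 of ChIP plus 1 over input plus 1 of at least 1, MITF was bound at 983 members (36.3%, against 39.4% of the eligible), TFEB at 1067 (39.4% against 40.3%) and TFE3 at 1480 (54.6% against 60.2%). At least 1 factor was bound at 1895 members (70.0% against 71.5%), and all 3 at 511 (18.9% against 23.4%).

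Between genotypes the members had lower factor tags relative to the eligible peaks, before any comparison with input. The input pools were lower in SgshKO as well, with medians of 5.10 tags per 10M in WT and 0.50 in SgshKO at members. At the eligible peaks those input medians were 6.53 and 1.98. Lower factor tags are thus not read as lost binding. The median log2 of SgshKO over WT tags (plus 1) was -0.59 at members for MITF, against 0.36 at the eligible peaks. It was -1.27 against -0.30 for TFEB and -0.38 against 0.47 for TFE3. Tags were at least 2-fold lower in the SgshKO pool at 43.3% of members for MITF, 54.3% for TFEB and 31.97% for TFE3, against 24.2%, 36.8% and 12.02% of eligible peaks. At the 993 eligible peaks that were 2-fold higher in SgshKO in H3K27ac the medians were 1.96, 1.08 and 1.81. The SgshKO pool was at 0 tags at 30.9%, 47.2% and 8.12% of members, against 15.8%, 27.7% and 2.69% of eligible peaks. The difference of medians between members and eligible peaks was -0.95, -0.97 and -0.85. All peak windows together held 10.7% of the tags of the MITF pool in WT and 17.9% in SgshKO, 9.46% and 10.3% for TFEB, and 20.7% and 32.97% for TFE3.

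Binding relative to input was also read in SgshKO. The SgshKO input pool held a median of 0.50 tags per 10M at members and the WT input pool 5.10 (1.98 and 6.53 at the eligible peaks). With each genotype's own input, MITF was bound at 49.0% of members in SgshKO, TFEB at 37.5% and TFE3 at 70.0%, against 65.2%, 54.2% and 81.9% of the eligible peaks. By that measure the members' shares were higher in SgshKO than in WT for MITF and TFE3, while those of the eligible peaks were higher for all 3 factors. The part of the input pools in these shares, and in the tag differences above, was not tested.

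**Figure D5:**
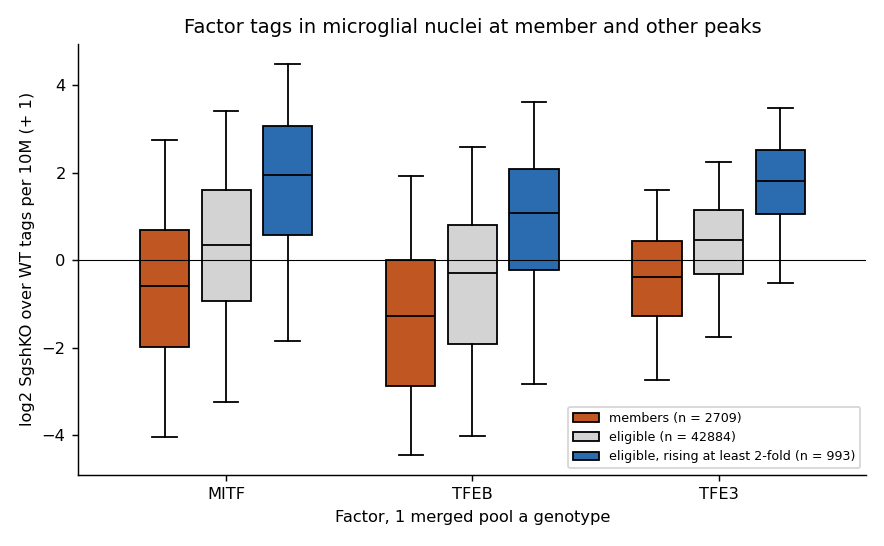
log2 of SgshKO over WT tags per 10M (plus 1) of each factor pool in the central 200 bp, at the members (orange), at all eligible peaks (grey) and at the eligible peaks that rose at least 2-fold in H3K27ac (blue). Boxes span the quartiles with the median as a line, whiskers the 5th to 95th percentile. The members have the lowest median for each factor, and there is 1 pool for each factor and genotype. Tags here are not set against input.

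Single members showed the range. The Tusc1 peak of largest ratio held 50.2 TFEB and 41.5 TFE3 tags per 10M in the WT pools and 0 and 1.14 in the SgshKO pools. The Mir152 peak of ratio 9.52 held 36.1 MITF, 25.3 TFEB and 22.7 TFE3 tags in WT and 0, 0 and 2.05 in SgshKO. At the Naglu member TFE3 went from 46.5 to 0, MITF from 7.30 to 0 and TFEB from 3.75 to 0. The Klf2 member held 89.1 TFE3 tags in WT and 23.7 in SgshKO, and the Irf2 member 30.3 and 2.96. At these 5 sites the tags of TFE3 were lower in the SgshKO pool. Set against the SgshKO input, TFE3 still counted as bound at Tusc1 (log2 of 1.10), Mir152 (1.29) and Klf2 (3.18). It did not at Naglu (-2.99) and Irf2 (-1.43).

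Other members kept or gained tags of at least 1 factor. A peak 28940 bp from Pik3r1, a regulatory subunit gene of PI3 kinase, was among the 3 most bound members for each factor. It held 146.4 MITF, 78.8 TFEB and 203.3 TFE3 tags per 10M in WT and 78.4, 60.0 and 341.6 in SgshKO, while its H3K27ac ratio was 2.503. Only TFE3 tags were thus higher in SgshKO there. Set against each genotype's own input, all 3 factors were lower in SgshKO at that peak. The log2 went from 5.18 to 2.74 for MITF, 4.30 to 2.36 for TFEB and 5.65 to 4.85 for TFE3. Near Nrip1, a nuclear receptor corepressor gene, TFE3 went from 112.9 to 160.6. The Klf4 member went from 95.8 to 180.8 in TFE3 and from 55.1 to 29.6 in MITF. At an intronic member 32751 bp from Ldhd MITF went from 0.37 to 74.4 while TFE3 went from 39.5 to 11.6. The Dclk2 member, among the most acetylated, held 148.9 MITF tags in WT and 158.1 in SgshKO, and 281.8 and 157.6 TFE3 tags.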

How the data were processed

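The tables were deposited with 1 value a peak and library, which per the file headers is signal in tags per 10M tags of the library, in the column layout of HOMER's annotatePeaks. Windows are 800 bp for H3K27ac and 200 bp for the factors. The authors' tools were Bowtie2, HOMER and DESeq2 and the build mm10, per the submitters' processing notes, which give no role or order. Low values were whole multiples of 1 step a column (at least 99.9% of those up to 200 steps, within 0.02 of a step plus the rounding of the file), and tags were recovered from them for scaling and for edgeR and DESeq2. In the 8-month neuronal and oligodendrocyte ChIP libraries the step was 0.5 tags, and tags were rounded. Totals of the microglial inputs came from the step, since their headers repeat the ChIP totals; that of SgshKO 4-month replicate 2 was 70034332 tags, against 10319658 to 16235397 in the other inputs.

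Samples were grouped by their titles. Peaks were filtered by filterByExpr and scaled by TMM, and log2(tags per 10M + 1) of 8 libraries was fitted with limma 3.58.1 (trend), as 4 groups for microglial ChIP and as genotype plus age for inputs, neurons and oligodendrocytes, two-sided, with Benjamini-Hochberg adjustment over all peaks tested. edgeR 4.0.16 and DESeq2 1.42.0 were alternatives, in R 4.3.3. The scripts were tested on simulated data. Replicate numbers did not pair the samples. A few named peaks and genes are not reported here. Motif letters were searched in RefSeq promoters, because no genome was used here; oligodendrocyte factor pools were left out.

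The members, gene lists, markers and tests were chosen with earlier results of these data known. Named peaks were the 10 of largest ratio, the 5 of highest WT mean, the 5 genes and 1 Mb windows with the most members, the 5 of largest ratio within 1 kb of a start, the largest of each list gene (up to 8 a list), the 2 of smallest p in each test, for each factor the 3 most bound and the 3 most changed each way, and the 3 on each side of the threshold. Members at marker start sites, and the genes and peaks named beyond this, were picked after their values were seen. Among the alternatives, those on the factor differences were added after seeing the data. Depth was 12000879 to 15778229 tags in a microglial ChIP library, and tags need not be independent molecules.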

Additional observations from a re-analysis of the deposited data

Results flagged for a closer look

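Among 22 groups of 4 libraries of 1 genotype (the members' median and the 10 members of largest ratio), 2 held a library whose gap to the nearest other library, divided by the group's range, was above Dixon's limit. Chance gives about 1 in 20 groups. Both were WT 4-month replicate 2. At the Tusc1 peak (0.838) it held 51.01 tags per 10M against 32.5 to 35.5 in the other WT libraries. At the Cdk5rap3 peak (0.839) it held 337.4 against 253.3 to 266.8. That library also had the highest share of its tags in peak windows, 51.3%.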

How the results depend on the processing

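The number of members followed the rule. It was 1557 on TMM-scaled values, all of them among the 2709, 1336 at a WT minimum of 50 and 577 at a ratio of at least 3. A WT minimum of 10 gave 3823 and an added value of 5 gave 1950. The rule on 4-month libraries alone gave 3460, of which 2163 were members, and on 8-month libraries alone 3800, of which 2055 were. Leaving out 1 library gave 2265 to 3688. Of 801 alternative ratios of 89 named peaks, 0 fell below 1 and 80 fell below 2.

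The replicate block called 0 members, as without it, in each of the 6 tests. Of all peaks it called 2 for the interaction, 4 between ages in SgshKO and 0 between ages in WT. It called 0 of all in inputs, 0 in neurons and 111 in oligodendrocytes. Same-numbered libraries did not all deviate together: correlations were -0.02 to 0.03 in microglial ChIP, 0.01 to 0.45 in inputs, -0.04 to 0.01 in neurons and -0.02 to 0.00 in oligodendrocytes. Since not every pair was over 0.1, the numbers were not taken as pairs. Leaving out 1 library gave 0 to 1 members for the interaction (1 without WT 4-month replicate 2, with 149 of all 75928 peaks), 0 to 11 for SgshKO at 8 against 4 months (11 without SgshKO 8-month replicate 1, with 68 of all 75489; 2 without replicate 2 of that group, with 15 of 75850; and 1 without SgshKO 4-month replicate 2, with 3 of 76518), 0 to 4 for WT at 8 against 4 months (4 without WT 4-month replicate 2, with 688 of all 75928), and 0 to 1 in oligodendrocytes (1 without WT 4-month replicate 2, with 187 of all 80804). DESeq2 called 2 in oligodendrocytes, with 282 of all 78443. Where 1 library remained in a group, it was assumed to vary like the others. The cause of these changes was not tested.

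Binding by at least 1 factor in WT went from 1895 to 1102 members at a log2 ratio of 2. The members' share within 1 kb of a start, divided by that of the background, went from 0.41 to 0.53 with all peaks as background. With 5 added to factor tags, the difference of members and eligible peaks was -0.54 for MITF and -0.45 for TFEB; its sign was also kept beyond 1 kb of a start and with 1 member a run. A minimum of 20 tags in the WT pool selects on the pool compared, so nothing was read from it. Factor pools have no replicates, so their spread is unknown.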
